A study of Bos taurus with 6 samples.

Results

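The 7 genes BDH1, BDH2, ACAT1, OXCT1, ACSS1, ACSS2 and ACSS3 encode enzymes that make or use ketone bodies, or that join short-chain acids to coenzyme A. They were picked by gene name out of the 32183 genes listed for each culture, and each name had a single entry. Rumen epithelial primary cells (REPC) were grown from the rumen lining of 1 Holstein bull calf, 2 weeks old and reared on milk replacer alone. The butyrate group comprised 3 REPC cultures given 5 mM butyrate in the medium for 24 h, the control group comprised 3 REPC cultures without it, and RNA from all 6 was sequenced. Since every culture goes back to the same animal, the errors and p-values below describe the spread between cultures and not between calves. Expression is given as FPKM (fragments scaled to the length of the transcript and to the mapped fragments of the library), which is a level per length and can be set side by side between genes.

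In a weaned ruminant, the rumen epithelium turns much of the butyrate it absorbs into ketone bodies. An acyl-CoA synthetase first activates the acid, short-chain beta-oxidation carries butyryl-CoA to acetoacetyl-CoA, and acetoacetate is then released in the mitochondria. ACAT1 is the mitochondrial thiolase that interconverts acetoacetyl-CoA and acetyl-CoA, and BDH1 is the mitochondrial dehydrogenase that interconverts acetoacetate and beta-hydroxybutyrate. OXCT1 works in the opposite sense, since it reactivates acetoacetate with the CoA of succinyl-CoA so that the ketone body can be burned. BDH2 is a cytosolic short-chain dehydrogenase that can also act on beta-hydroxybutyrate. The ACSS enzymes activate acetate (ACSS1 in mitochondria, ACSS2 in cytosol and nucleus) or chiefly propionate (ACSS3), so none of the 7 is a dedicated butyrate-activating enzyme.

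After butyrate, OXCT1 more than doubled, ACSS1 and ACSS2 rose, BDH1 fell by 36.6%, BDH2 was slightly higher, ACAT1 did not pass the test and ACSS3 was at the limit of detection. A gene is said to have risen or fallen where limma, run on log2(FPKM + 0.1) over the 15813 genes whose FPKM averaged 0.1 or more in the 6 cultures, gave a Benjamini-Hochberg adjusted p under 0.05. By that rule 4 of the 6 genes that could be tested rose and 1 fell, whereas 32.5% of all tested genes rose and 25.9% fell. None of the 6 was a differentially expressed gene (DEG) by the stricter thresholds of the study, which ask for a log2 fold change beyond 2 and a Bonferroni-adjusted p below 0.05 and 3.97% of all tested genes passed. Here and below, DEG means a gene that passed these thresholds in the limma fit. The study took its own DEGs from Cufflinks, so its list and count differ from those given here. The 3 butyrate values lay wholly above the 3 control values in OXCT1, ACSS1, ACSS2 and BDH2, as they did in 36.1% of all tested genes, and wholly below them in BDH1, as in 28.9%. With so few enzymes the counts are a description, and the account below turns on which enzymes moved and by how much. The median log2 fold change was 0.46 over the 6 genes and 0.10 over all tested genes. For a single gene, an exact permutation test of 3 cultures against 3 cannot give a p below 0.1.

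**Figure D1:**
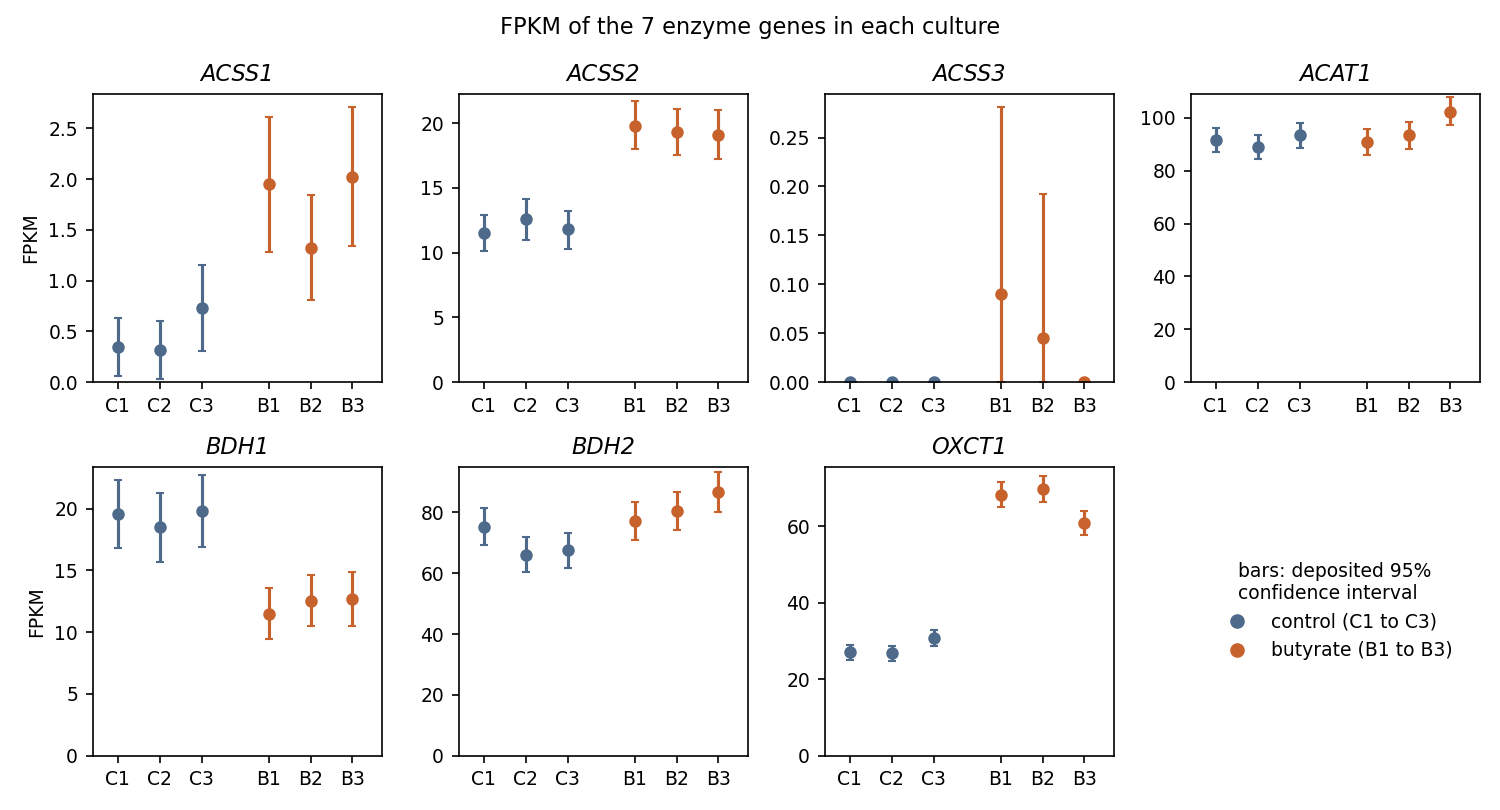
FPKM of each of the 7 genes in the 3 control (C1 to C3) and 3 butyrate (B1 to B3) cultures, on linear axes from 0 that differ between panels, with the confidence interval deposited for each value as a bar. OXCT1 stood at 26.7 to 30.7 in control and 60.8 to 69.6 after butyrate, BDH1 moved the other way, and the groups overlapped in ACAT1.

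OXCT1, the enzyme that commits acetoacetate to oxidation, had an FPKM of 27.0, 26.7 and 30.7 in the 3 control cultures, in order of replicate number, and of 68.2, 69.6 and 60.8 in the 3 butyrate cultures. Every butyrate culture was thus far above every control culture, and the deposited confidence intervals of the groups did not touch, with 32.8 as the highest upper bound in control and 57.7 as the lowest lower bound after butyrate. The mean went from 28.1 ± 2.20 (SD, n = 3) to 66.2 ± 4.71 (SD, n = 3), which is 2.35-fold. On the log2 scale it rose by 1.23 (SE 0.08), with a 95% confidence interval from 1.05 to 1.41 (limma, Benjamini-Hochberg adjusted p = 2.82e-06). Among the 6 it alone also passed after Bonferroni adjustment (adjusted p from limma = 0.0027), and it missed the DEG thresholds by the size of its change. In absolute size, 77.9% of all tested genes changed less. The gene lies on chromosome 20 from 32683996 to 32848726 (build UMD3.1).

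BDH1, whose product converts acetoacetate to beta-hydroxybutyrate and back, had an FPKM of 19.6, 18.5 and 19.8 in control and of 11.5, 12.5 and 12.7 after butyrate. All 3 butyrate cultures were low and none overlapped a control culture. The deposited intervals were also apart, since the highest upper bound after butyrate was 14.9 and the lowest lower bound in control was 15.7. The mean fell from 19.3 ± 0.727 (SD, n = 3) to 12.2 ± 0.647 (SD, n = 3), a fall of 36.6%. This is a log2 fold change of -0.65 (SE 0.08), with a 95% confidence interval from -0.83 to -0.47 (limma, Benjamini-Hochberg adjusted p = 0.000128). BDH1 was the one enzyme of the 7 that fell. It lies on chromosome 1 from 72572747 to 72608970.

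BDH2, the cytosolic dehydrogenase, was among the more abundant of the 7 transcripts, with an FPKM of 75.3, 66.1 and 67.5 in control and of 77.2, 80.5 and 86.6 after butyrate. The groups did not overlap, but the gap between control replicate 1 and butyrate replicate 1 was small and the deposited intervals of those cultures overlapped. The mean was 69.7 ± 4.93 (SD, n = 3) in control and 81.4 ± 4.80 (SD, n = 3) after butyrate, a rise of 16.9%. The log2 fold change of 0.23 (SE 0.07) had a 95% confidence interval from 0.07 to 0.38 (limma, Benjamini-Hochberg adjusted p = 0.0198). This call was lost without control replicate 2 (adjusted p from limma = 0.0731), without control replicate 3 (0.0626), without butyrate replicate 3 (0.0709), without the mean-variance trend (0.0773) and when the median log ratio of each culture was set to 0 (log2 fold change 0.13, adjusted p from limma = 0.113). BDH2 lies on chromosome 6 from 23046981 to 23078620.

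ACAT1 had the highest level of the 7 genes in both groups, at an FPKM of 91.5, 89.0 and 93.3 in control and of 90.7, 93.3 and 102 after butyrate. The ranges overlapped and only butyrate replicate 3 stood above all control cultures. The mean was 91.3 ± 2.18 in control and 95.5 ± 6.20 after butyrate (SD, n = 3). The log2 fold change of 0.06 had a 95% confidence interval from -0.07 to 0.19 (limma, Benjamini-Hochberg adjusted p = 0.364). The value depended on the scaling, and was 0.19 after rescaling to TPM (limma, adjusted p = 0.0173), 0.21 with quantile normalization (limma, adjusted p = 0.0124) and -0.03 with the median log ratio set to 0 (limma, adjusted p = 0.697). ACAT1 lies on chromosome 15 from 17999932 to 18028987.

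ACSS2, the acetyl-CoA synthetase of cytosol and nucleus, had an FPKM of 11.5, 12.6 and 11.8 in control and of 19.8, 19.3 and 19.1 after butyrate. The cultures of a group lay close together, the groups were well apart, and so were their deposited intervals, which ended at 14.1 in control and began at 17.2 after butyrate. The mean rose 1.62-fold, from 12.0 ± 0.536 to 19.4 ± 0.371 (SD, n = 3). The log2 fold change was 0.70 (SE 0.07), and its 95% confidence interval ran from 0.52 to 0.87 (limma, Benjamini-Hochberg adjusted p = 6.32e-05). ACSS2 lies on chromosome 13 from 64794700 to 64841521.

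ACSS1, the mitochondrial acetyl-CoA synthetase, was expressed at a low level and lies on the same chromosome 13, from 43029517 to 43073608. Its FPKM was 0.349, 0.316 and 0.728 in control and 1.95, 1.32 and 2.02 after butyrate. All butyrate cultures were above all control cultures, although the deposited interval of control replicate 3, which reached 1.15, overlapped that of butyrate replicate 2, which began at 0.814. The mean was 0.464 ± 0.229 (SD, n = 3) in control and 1.76 ± 0.383 (SD, n = 3) after butyrate, which is 3.80-fold. At 1.77 on the log2 scale (SE 0.33) it had the widest 95% confidence interval of the 6, from 1.01 to 2.54 (limma, Benjamini-Hochberg adjusted p = 0.00176). Its log2 fold change exceeded that of OXCT1 as reported, but was below it with a pseudocount of 1 (0.92 against 1.21) and with quantile normalization (1.22 against 1.31). The deposited intervals imply only 5 to 12 fragments per control culture and 27 to 35 per butyrate culture, against 1376 to 1587 for ACAT1 in the 6 cultures, which is an approximation and covers counting error only.

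The ACSS1 entry lies wholly inside the span of another entry, ENTPD6, from 43003337 to 43076852. Whether the library kept strand is not given in the sources used here, so reads of the pair could have been exchanged, and the ACSS1 values are uncertain to that extent. ENTPD6, a nucleotide-hydrolysing ectoenzyme, moved the other way. Its FPKM averaged 3.45 ± 0.748 in control and 2.08 ± 0.349 after butyrate (SD, n = 3), a log2 fold change of -0.70 (limma, Benjamini-Hochberg adjusted p = 0.0223). No other tested gene of the 7 overlapped another entry.

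ACSS3, the propionate-preferring synthetase on chromosome 5 from 10731236 to 10916947, was listed at 0 in all 3 control cultures. After butyrate it was listed at 0.0903, 0.0455 and 0, with deposited intervals that reached down to 0. It was too low to be tested, and no fold change is given. Its span overlaps LOC100336998, which was listed at 0 in all 6 cultures.

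Among the ACSS genes, the acetyl-CoA synthetase transcripts were therefore mostly ACSS2 in both groups. ACSS2 made up 97.1%, 97.5% and 94.2% of the summed ACSS FPKM in control and 90.7%, 93.4% and 90.4% after butyrate. The share of ACSS1 was 2.45% to 5.82% in control and 6.40% to 9.57% after butyrate. The summed FPKM rose from between 11.9 and 12.9 to between 20.7 and 21.9.

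In control REPC the order of the levels was ACAT1, BDH2, OXCT1, BDH1, ACSS2, ACSS1 and ACSS3, and the ranges of neighbouring genes in that order did not overlap. After butyrate OXCT1 came close to BDH2, from a mean level 2.48 times lower to one 1.23 times lower, and ACSS2 and BDH1 changed places. ACSS2 was then 1.59 times as abundant as BDH1, where BDH1 had been 1.61 times as abundant as ACSS2 in control. ACAT1 exceeded 91.5% of the tested genes in control, and OXCT1 moved from above 78.0% of them to above 89.4%.

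**Figure D2:**
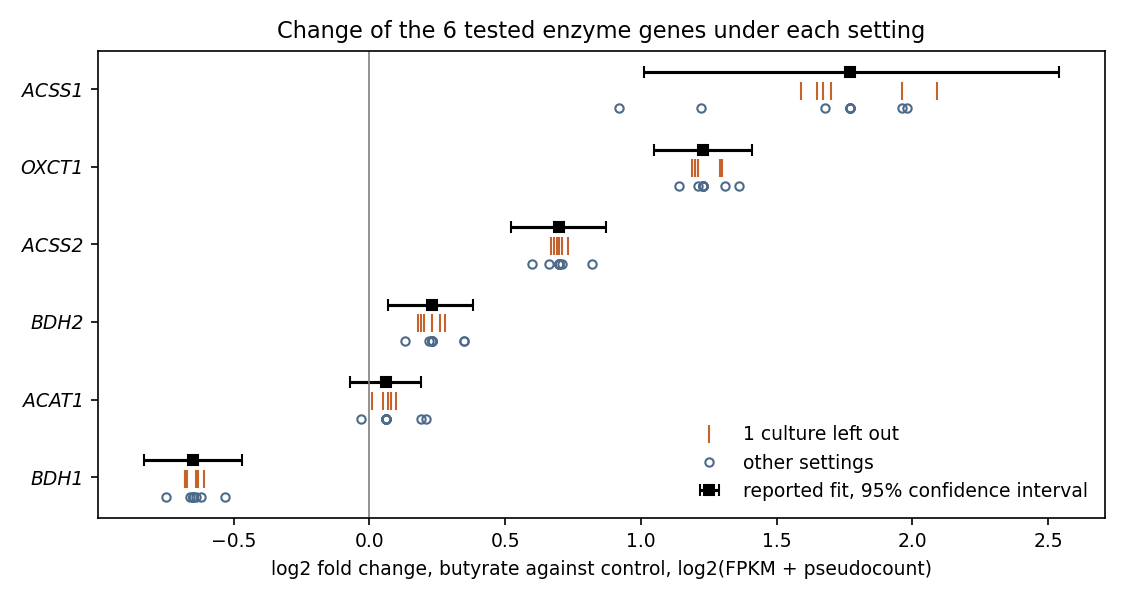
Log2 fold change of the 6 tested genes, butyrate against control, in the reported limma fit (black square with its 95% confidence interval), in the 6 fits that each left out 1 culture (orange ticks) and in the other settings (open circles). The values of ACSS1, OXCT1, ACSS2, BDH1 and BDH2 kept to 1 side of 0 in each fit, whereas the ACAT1 values lay from -0.03 to 0.21. BDH2 lost its call in 5 of the fits.

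Changes within the set were also compared as ratios in each culture, in which the scaling of the library cancels apart from the pseudocount of 0.1. The log2 ratio of OXCT1 to ACAT1 was -1.75, -1.73 and -1.60 in control and -0.41, -0.42 and -0.75 after butyrate, so OXCT1 was at 0.296 to 0.329 of the ACAT1 level before and at 0.594 to 0.752 after. The mean log2 ratio went up by 1.17, with no overlap between the groups (two-sided exact permutation test, p = 0.1). The log2 ratio of the dehydrogenases, BDH1 to BDH2, was -1.94, -1.84 and -1.76 in control and -2.74, -2.67 and -2.76 after butyrate. It fell by 0.88, again without overlap (exact permutation test, two-sided, p = 0.1). For ACSS2 to ACSS1 the log2 ratio was 4.70, 4.93 and 3.84 in control and 3.28, 3.77 and 3.18 after butyrate. That pair was the least firm, since control replicate 3 and butyrate replicate 2 were nearly level. The fall of 1.08 (exact permutation test, two-sided, p = 0.1) was 0.26 with a pseudocount of 1. These 3 p-values form 1 family and stay at 0.1 after Benjamini-Hochberg adjustment.

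**Figure D3:**
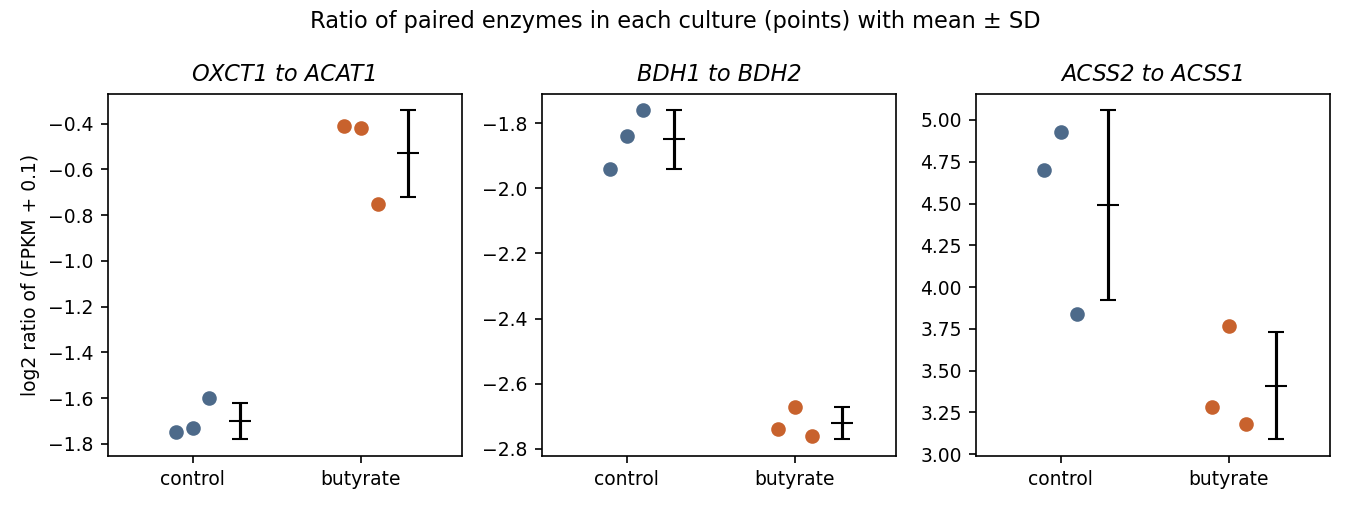
Log2 ratio of 2 enzymes' (FPKM + 0.1) in each control and butyrate culture (points), with the group mean ± SD beside them. The axes do not start at 0. OXCT1 gained on ACAT1, BDH1 lost against BDH2, and ACSS2 lost against ACSS1 with points of both groups nearly level.

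The steps around the 7 enzymes were read from lists of pathway genes, 9 in all, of which 8 are described. Counts in each list stand beside the 32.5% of all tested genes that rose and the 25.9% that fell. Of the other ketone body enzymes, both that could be tested fell. ACAT2, the cytosolic thiolase that feeds cholesterol synthesis, went from 159 ± 7.31 to 78.2 ± 3.63 (SD, n = 3), a log2 fold change of -1.02, and AACS, which activates acetoacetate in the cytosol, went from 31.9 ± 0.804 to 23.6 ± 1.03 (SD, n = 3), a log2 fold change of -0.43. OXCT2, the testis-type relative of OXCT1, was listed at 0 throughout.

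Among the acyl-CoA synthetases that could activate butyrate itself, the medium-chain family was at or near 0. ACSM1 and ACSM2B were listed at 0 in all cultures, ACSM3 and ACSM5 were too low to be tested, and ACSM4 stayed near an FPKM of 0.307 in control and 0.273 after butyrate (limma, adjusted p = 0.772). ACSM2A is a synonym of ACSM2B in the RefSeq gene table, and ACSM6 had no entry under that name. The related ACSF2, a mitochondrial medium-chain acyl-CoA synthetase, rose from 46.2 ± 3.88 to 75.1 ± 4.23 (SD, n = 3), a log2 fold change of 0.70, and ACSF3, which activates malonate, fell with one of -0.72.

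The list for the steps from butyryl-CoA to acetoacetyl-CoA and their electron carriers held 9 genes, all well expressed. Among them were ACAA2, a thiolase outside that sequence, and HADHA and HADHB, which encode the long-chain trifunctional protein. Of the 9, 2 rose, 3 fell and 4 did not pass, where 32.5% of all tested genes rose and 25.9% fell. ACAA2 was among those that fell (log2 fold change -0.24), and HADHA and HADHB were among those that did not pass. ACADS, the short-chain dehydrogenase that starts the sequence, had an FPKM of 75.5 ± 6.17 in control and 73.6 ± 1.37 after butyrate (SD, n = 3), with a 95% confidence interval of the log2 fold change from -0.18 to 0.12. ETFDH, which passes the electrons to ubiquinone, rose by 0.60 on the log2 scale, HADH, the hydroxyacyl-CoA dehydrogenase, rose by 0.47, and ECHS1, the enoyl-CoA hydratase that acts between ACADS and HADH, fell by 0.43.

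The list of acetyl-CoA supply and use in mitochondria, which includes the kinases of pyruvate dehydrogenase, mostly fell. Of 11 tested genes, 7 fell and 3 rose, with a median log2 fold change of -0.45. Over all tested genes, 25.9% fell and 32.5% rose. PDHB, a subunit of pyruvate dehydrogenase, fell from 93.5 ± 3.85 to 33.2 ± 3.84 (SD, n = 3), a log2 fold change of -1.50. The 3 that rose were PDK2, PDK3 and PDK4, kinases that switch pyruvate dehydrogenase off. They rose by 1.10, 0.63 and 1.33 on the log2 scale, although PDK4 remained at a low FPKM of 0.370. PDK1, a further such kinase, did not pass (log2 fold change 0.11). In the cytosolic list, where ACSS2 would belong by its site, 4 of 11 tested genes fell and 2 rose, with a median of -0.07. SREBF1, which encodes a sterol-responsive factor for lipid genes, rose by 0.85 on the log2 scale.

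Of the carriers and sensors of monocarboxylates, 2 of 4 tested genes rose and 1 fell. SLC16A1, the main proton-coupled carrier of short-chain acids and ketone bodies, fell from 57.6 ± 1.12 to 37.1 ± 1.37 (SD, n = 3), a log2 fold change of -0.64 and close to that of BDH1. SLC16A3, a carrier known for lactate export, went from 1.05 ± 0.564 to 20.1 ± 0.856 (SD, n = 3), a log2 fold change of 4.28 and the only DEG in the 9 lists. BSG, the chaperone of both, rose by 0.58. The acid receptor FFAR2 was listed at 0 in all cultures, and HCAR2 had no entry under that name. Over all 9 lists, 14 of 59 tested genes rose and 24 fell, with a median log2 fold change of -0.14, where 32.5% of all tested genes rose and 25.9% fell.

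**Figure D4:**
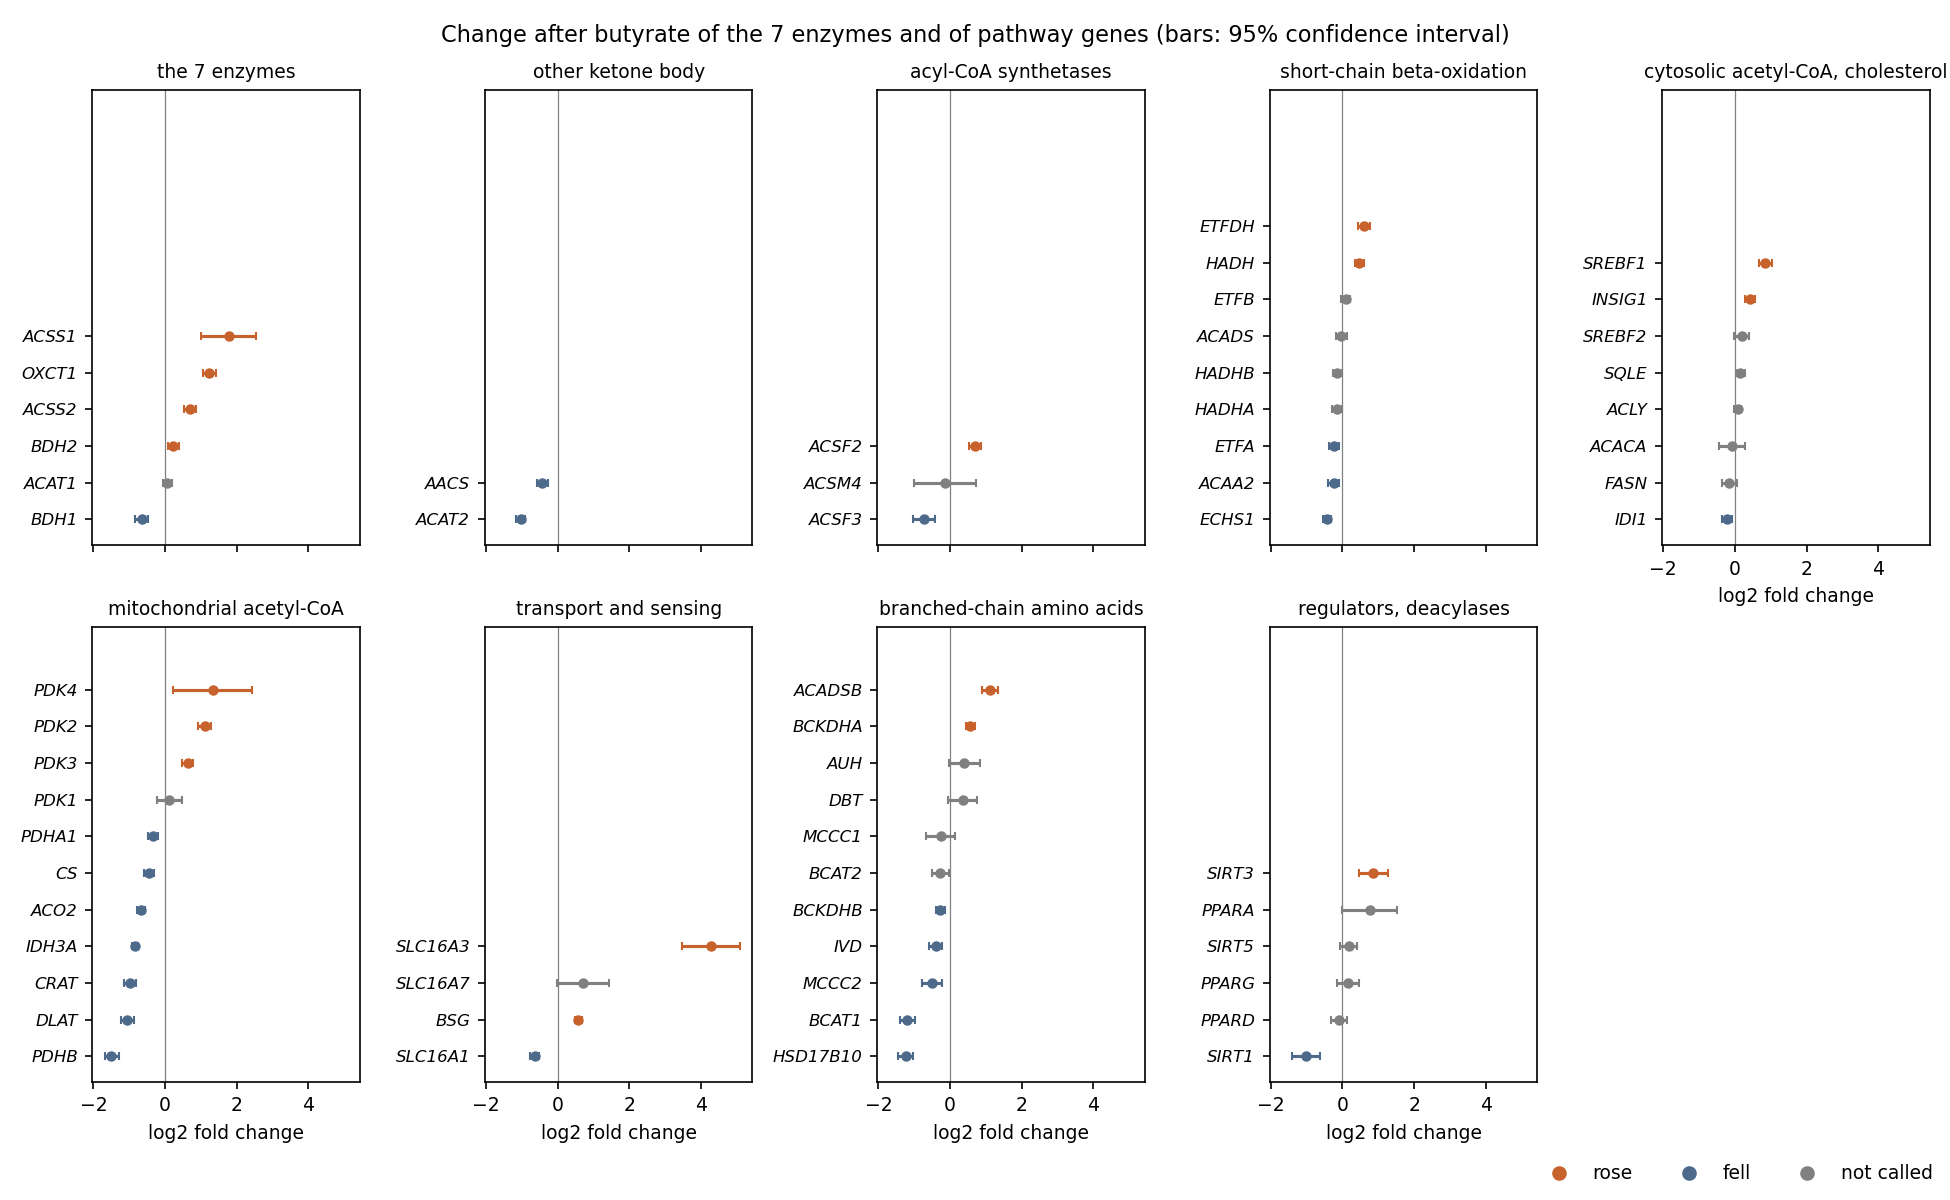
Log2 fold change, butyrate against control, with its 95% confidence interval for the 7 enzymes (6 tested) and for tested genes of 8 pathway lists, without genes that are not reported, coloured by whether they rose, fell or were not called. OXCT1 and ACSS1 rose, both cytosolic ketone body genes fell, and most mitochondrial acetyl-CoA genes fell.

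For each enzyme the genes with the most similar course were found by the root mean square distance of log2(FPKM + 0.1), relative to the control mean, over the 6 cultures and among 11025 genes. BDH1 was closest to FDPS, the farnesyl diphosphate synthase of the cholesterol pathway (distance 0.0149), then PSMC2 and TPM3. OXCT1 ran close to ADD3 (distance 0.0652) and PIK3IP1 (distance 0.0653). For ACSS2 they were TMEM134, LACTB2 and CIRBP, with distances from 0.0283 to 0.0320. BDH2 was nearest to SLC39A9, DPM2 and AGPS, and ACAT1 to UBLCP1, KDELR3 and FPGT. ACSS1 had no near match, its closest being PLEKHG4 at 0.195, followed by IQCD and UGT2A1. With so many candidate genes a close match is easily found, so the names are a description only.

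The labelled cell type was checked with marker genes. All 10 epithelial markers were detected, although EPCAM was low in control at a mean FPKM of 0.540. Their summed FPKM was 3320 to 3470 in control and 6640 to 6690 after butyrate, most of it KRT8, KRT7 and KRT19. Of the 10, 7 rose, 1 fell and 2 did not pass, where 32.5% of all tested genes rose and 25.9% fell. KRT14, EPCAM and KRT19 had log2 fold changes of 2.78, 2.44 and 1.99. KRT5 fell with one of -0.17 (limma, Benjamini-Hochberg adjusted p = 0.0323), and CDH1 and DSP were each at -0.03. The cultures also had high levels of some fibroblast and smooth muscle markers, whereas others of these lists were low. In control, PDGFRA averaged an FPKM of 0.306, LUM 0.149, MYH11 0.662 and DES 0.367, and PDGFRB was too low to be tested. Of the fibroblast list, 9 of 9 tested genes rose, and its sum went from between 5520 and 5810 to between 8510 and 9220, most of it VIM, COL1A1 and FN1. The sum of the 4 smooth muscle markers went from between 3440 and 3620 to between 1030 and 1390, where 3 fell, ACTA2 and CNN1 among them, and DES rose. The endothelial sum was low but went from between 1.95 and 2.07 to between 6.48 and 8.42, with rises of both tested markers, VWF (log2 fold change 2.65) and PECAM1 (1.28), and with CDH5 at 0. The immune sum went from between 5.12 and 7.14 to between 7.24 and 9.38, where CD68 rose (log2 fold change 0.92), CD14 did not pass and PTPRC was at 0. These marker sums moved with the treatment, as did the 5 enzymes that passed the test, and their part in the enzyme changes was not tested. In bulk RNA, a change in the number of cells of a type and a change in RNA per cell cannot be told apart.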

How the data were processed

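Per the labels' processing notes and the methods, the authors trimmed the reads with Trim Galore 0.4.1, aligned them with STAR to build UMD3.1, kept uniquely mapped reads and deposited Cufflinks gene FPKM with confidence bounds for each culture. Nothing was pooled. No counts are held in these tables, so no count test was run. Fragments per gene were approximated as the square of FPKM over its standard error, taking a bound as 2 standard errors from the value. FPKM summed to between 678035 and 681912 per control culture and to between 619401 and 629037 per butyrate culture, and between 16051 and 17510 genes were above 0.

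Tables were joined by position and name. Starts were raised by 1, since 252 of 1134 gene starts then equalled those in the study's gene tables and 3 did as written. Chromosomes were taken from those tables. A failed estimate removed 2 genes. Values were fitted as log2(FPKM + 0.1), without covariates, where FPKM averaged 0.1 or more, by limma 3.58.1 with its trend option (R 4.3.3), and exact permutation tests used scipy 1.17.1. The fit was also run on simulated data in which only a small part of the genes changed. That setting differs from these data and does not bear on how BDH2 and ACAT1 depend on scaling. Alternatives were other pseudocounts, filters and scalings, no trend, stricter thresholds, a replicate block and each culture left out. Named genes are the 7 enzymes and the 3 genes of most similar course. In each pathway list they are the 3 called genes with the largest change plus genes that define the list. PDK1, PDK3, ACAA2, HADHA, HADHB, entries that overlap an enzyme and cell type markers were named outside this rule. Some genes that this rule names are not reported here. Members and lists were chosen with earlier results of these data known.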

Additional observations from a re-analysis of the deposited data

How the results depend on the processing

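OXCT1, ACSS1, ACSS2 and BDH1 kept their direction and call in all 15 alternatives, from 1.14 to 1.36, 0.92 to 2.09, 0.60 to 0.82 and -0.75 to -0.53 on the log2 scale. BDH2, at 0.23, lost its call without the trend (0.23), with the median log ratio set to 0 (0.13) and in 3 of the 6 fits without 1 replicate, which ranged from 0.18 to 0.28. ACAT1, at 0.06, reversed to -0.03 with the median log ratio set to 0, and passed the test at 0.19 after rescaling to TPM and at 0.21 with quantile normalization. The median log2 fold change of all tested genes was 0.10 as deposited, 0.24 in TPM and -0.05 with quantile normalization, and relative to it OXCT1 was at 1.13, 1.12 and 1.35, ACSS1 at 1.67, 1.72 and 1.26, ACSS2 at 0.59, 0.58 and 0.76, BDH2 at 0.12, 0.11 and 0.39, ACAT1 at -0.04, -0.05 and 0.25 and BDH1 at -0.76, -0.77 and -0.60. The cause was not tested.

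With a Bonferroni-adjusted p under 0.05 and no limit on the fold, 1 of the 6 tested members rose (OXCT1) and 0 fell. Of all 15813 tested genes, 916 rose and 1102 fell by that threshold. With a log2 fold change beyond 1 as well as the Benjamini-Hochberg adjusted p, 2 of the 6 rose (OXCT1 and ACSS1) and 0 fell. The counts were then 2718 and 1271 of the 15813 tested genes. DEGs among all genes, 627, were 409 with the replicate block, 375 without a filter, 354 without the trend and 332 to 503 with a replicate left out, the lower values being 355, 332 and 367 without butyrate replicates 1, 2 and 3. No member was a DEG in any fit. ACSS1 rests on 5 to 12 fragments per control culture, which limits the precision of its change, and depth does not allow ACSS3 to be compared.

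Same-numbered control and butyrate cultures deviated from their group means with correlations across genes of 0.0228, -0.00431 and 0.00177, so the numbers were not taken to pair the cultures. Replicate 1 cultures each correlated best with their own number, whereas replicates 2 and 3 did so with each other's. The replicate block changed no call of the 7 genes.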

Other observations

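The mitochondrial thiolase ACAT1 also closes the breakdown of isoleucine, so the genes of branched-chain amino acid degradation were read as well. Of 11 tested genes, 5 fell and 2 rose, with a median log2 fold change of -0.27, where 25.9% of all tested genes fell and 32.5% rose. HSD17B10, the step just before ACAT1 in isoleucine breakdown, fell from an FPKM of 80.3 ± 7.90 to 33.8 ± 2.62 (SD, n = 3), a log2 fold change of -1.24 (limma, Benjamini-Hochberg adjusted p = 5.14e-06). BCAT1, the cytosolic transaminase that starts the pathway, fell by 1.19 on the log2 scale. ACADSB, the dehydrogenase specific for the isoleucine branch, rose from 20.5 ± 3.09 to 44.5 ± 1.58 (SD, n = 3), a log2 fold change of 1.12, so enzymes of this branch moved in opposite directions around an ACAT1 level that did not pass the test.

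Of 6 tested regulators and deacylases, 1 rose and 1 fell, where 32.5% of all tested genes rose and 25.9% fell. SIRT3, the mitochondrial deacetylase known to activate ACSS1, rose from 5.18 ± 1.20 to 9.41 ± 1.26 (SD, n = 3), a log2 fold change of 0.86 (limma, Benjamini-Hochberg adjusted p = 0.00259). SIRT1, the deacetylase known to activate ACSS2, fell from 4.32 ± 0.794 to 2.05 ± 0.163 (SD, n = 3), a log2 fold change of -1.03 (limma, Benjamini-Hochberg adjusted p = 0.000987). PPARA, a fatty-acid-sensing nuclear receptor, was at 0.565 ± 0.186 in control and 1.02 ± 0.331 after butyrate (SD, n = 3), and its adjusted p from limma was 0.0807. FOXA2 and PPARGC1A were too low to be tested.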
